A study of Mus musculus with 29 samples.

Results

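Brown adipose tissue (BAT) of calorie-restricted, treadmill-trained mice (CREX) was compared with BAT of mice that ran but ate freely (EX), which gives the effect of calorie restriction (CR) on a background of training. The comparison used 8 of the 29 RNA-seq libraries of the series, all 4 CREX and all 4 EX libraries of BAT, each from 1 mouse, and all genes of the deposited table. All mice were wild-type C57BL/6J males that were 8 weeks old at the start. The EX mice ran at 12 m/min for 1 h on 5 days a week for 8 weeks. The CREX mice ran in the same way while their food was lowered by 10% a week until they received 70% of the free intake. Both groups were killed 24 h after the last run and 6 h into a fast, so training and fasting were shared by both groups and food intake was what the design varied. The hours at which the restricted mice were fed and at which tissue was taken are not given in the sources used here. The sedentary groups, 3 control and 4 CR libraries of BAT, were used for comparison at the end.

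BAT burns lipid and glucose to make heat. Its adipocytes carry UCP1, which lets protons leak back across the inner mitochondrial membrane, and they respond to noradrenaline through the beta-3 adrenergic receptor. The adipocytes sit in a matrix of basement membrane and interstitial collagens among capillaries, nerves, fibroblasts and immune cells, and all of these contribute RNA to a piece of tissue. Energy shortage raises glucocorticoids in rodents, lowers thermogenic demand and shifts feeding rhythms, so hormone-responsive, thermogenic and clock genes are of particular interest under CR.

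The libraries held 21047242 to 22672096 counts in the EX group and 23870131 to 24919377 in the CREX group, so every CREX library was deeper than every EX library. A gene with 3 counts stood at 0.118 to 0.139 CPM (counts per 1000000 counts of the library, scaled by the TMM method that corrects for library composition). Values of the 4 mice of a group are listed in the order of their replicate numbers, which only name the mice. The tissue label held, as all 16 brown adipocyte markers of the list were detected and summed to 4021 CPM or more in each of the 8 libraries. The lowest sum was that of CREX replicate 3, where the 12 muscle markers summed to more, 6757 CPM. Skeletal muscle RNA was also present and varied within the groups. The 12 muscle markers summed to 1302, 3957, 4166 and 7.75 CPM in the EX and to 1086, 1425, 6757 and 2168 CPM in the CREX libraries, 0 of 12 were called, and the DEG counts with this sum as a covariate are given below. EX replicate 3 stood apart through stromal genes, with Col1a1 at 349.9 CPM against 32.7 to 39.0 CPM in the other EX libraries. Medians of the collagen, basement membrane, proteoglycan and fibroblast lists are therefore given with and without it. In bulk tissue, fewer cells of a type and less RNA per cell cannot be told apart.

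**Figure D1:**
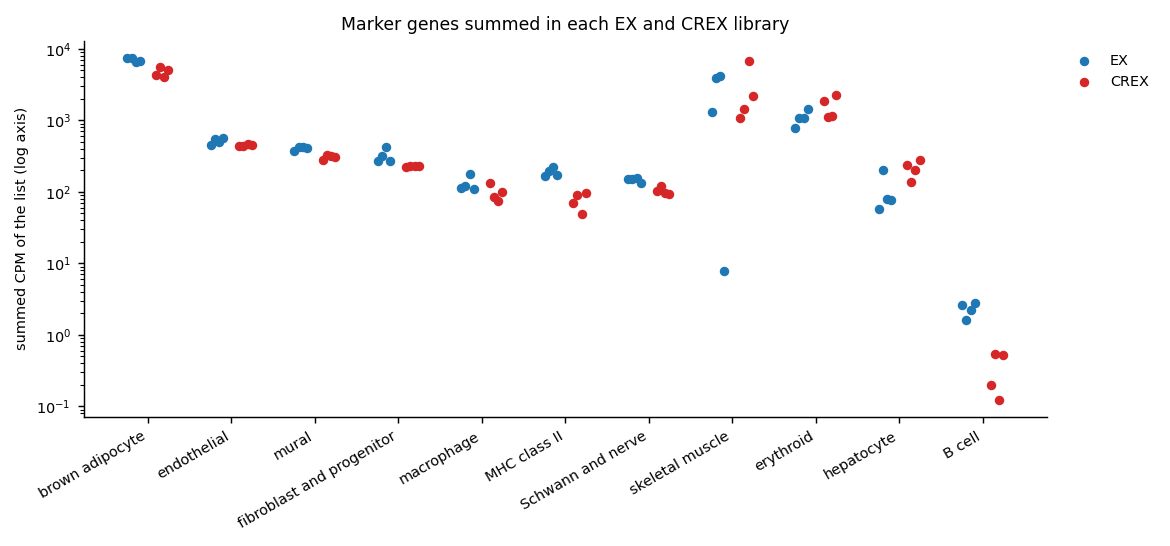
Summed CPM (vertical log axis) of the marker genes of each cell type, and of the MHC class II genes, in each of the 4 EX (blue) and 4 CREX (red) libraries. The brown adipocyte sum was 6462 to 7463 CPM in EX and 4021 to 5575 CPM in CREX libraries, the MHC class II sums of the groups did not overlap, and the skeletal muscle sum varied within both groups, with EX replicate 4 at 7.75 CPM.

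Of 13251 genes tested with edgeR, 594 were differentially expressed genes (DEGs, changed by more than 1.5-fold with a p under 0.05 after Benjamini-Hochberg adjustment), which is 4.48% of all genes tested. Of these, 246 were upregulated (1.86%) and 348 downregulated (2.63%) in the CREX group. Above 2-fold stood 107 upregulated and 149 downregulated genes, and above 4-fold 20 and 15. The CPM values of the groups did not overlap for 585 of the 594 DEGs, against 17.7% of all genes tested. As DEGs were called on these same libraries, non-overlap largely follows from the call and adds no support to it. The median log2 fold change of all genes tested was -0.002. With the muscle marker sum as a covariate 676 genes were called, and without EX replicate 3 there were 388, of which 156 were upregulated (1.16% of 13394 tested) and 232 downregulated (1.73%). Without CREX replicate 1, CREX replicate 4 and EX replicate 2 the counts were 384, 363 and 381, so the number of DEGs depended on which mice entered the fit. The counts of called genes in each list below stand against these shares of all genes tested, 1.86% upregulated and 2.63% downregulated. Below, a number in parentheses after a gene is its log2 fold change, CREX against EX.

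Among the genes with the largest increases were enzymes of lipid, sugar and drug metabolism. The genes named for large changes here and in the next paragraph were taken from DEGs whose groups did not overlap. Their non-overlap, and that of Cxcl13, Fkbp5 and Nr1d1 below, was thus fixed by the choice. Cyp2b10 stood at 0.739, 1.42, 1.012 and 5.65 CPM in the EX group and at 51.1, 28.7, 77.6 and 81.3 CPM in the CREX group. This cytochrome P450 (chr7:25897658-25926624 in GRCm38) oxidizes steroids and foreign compounds (log2 fold change 4.75 ± 0.74 SE, adjusted p = 0.0171 by edgeR). Fbp1, a gluconeogenic phosphatase, stood at 0.0875 to 0.686 CPM in EX and 2.66 to 4.83 CPM in CREX libraries (log2 fold change 3.35 ± 0.47 SE, adjusted p = 0.0047 by edgeR). The melanocortin receptor gene Mc5r rose from between 0.732 and 1.88 to between 6.71 and 14.5 CPM (log2 fold change 2.90 ± 0.32 SE, adjusted p = 0.00211 by edgeR). Myrip and Doc2b, whose proteins act in vesicle transport and exocytosis, rose with log2 fold changes of 2.47 and 2.45, the peroxisomal thioesterase gene Acot3 with 2.42, and Lingo4 with 2.69 (by edgeR, adjusted p = 0.000379, 0.00338, 0.00223 and 0.0066). The 10 hepatocyte markers in the table summed to 58.0, 199, 79.6 and 77.7 CPM in EX and 236, 136, 202 and 280.5 CPM in CREX libraries. Most of each sum was Trf, whose values are given under the other observations. Alb was high only in EX replicate 2 (38.9 CPM) and CREX replicate 4 (32.3 CPM). The part of liver RNA in these results was not tested. Fbp1 and other increased genes with low EX values may have passed the low-count filter through the CREX group, where they were higher. With 1 mouse left out, edgeR did not call Cyp2b10 without EX replicate 2 (adjusted p up to 0.0565).

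Genes with the largest decreases included a secreted, an imprinted and a B cell gene. Ptgds stood at 4.66, 5.12, 7.94 and 4.95 CPM in the EX group and at 0.160, 0.266, 0.330 and 0.8291 CPM in the CREX group. Ptgds encodes a prostaglandin D2 synthase that also carries retinoids (log2 fold change -3.82 ± 0.41 SE, adjusted p = 0.00195 by edgeR). Nnat, an imprinted gene of the endoplasmic reticulum, stood at 4.16, 17.8, 16.1 and 10.1 CPM in EX and 1.24, 0.887, 1.36 and 0.987 CPM in CREX libraries (log2 fold change -3.43 ± 0.47 SE, adjusted p = 0.00716 by edgeR). Cd79a, part of the B cell antigen receptor, had at most 3 counts in every CREX library and 0.549 to 0.785 CPM in the EX libraries, which is at least 5.25-fold lower when 3 counts per library are taken as the level of the CREX group (by edgeR, adjusted p = 0.00567). It passed the low-count filter through the EX group alone, where it was higher, and was the 1 B cell marker tested. The macrophage chemokine receptor gene Cx3cr1 and the interferon-inducible gene Pyhin1 fell with log2 fold changes of -2.25 and -2.20 (by edgeR, adjusted p = 0.0242 and 0.00693). Rab11fip4, of recycling endosomes, fell from between 1.86 and 3.06 to between 0.118 and 0.479 CPM, the fucosyltransferase gene Fut4 from between 0.744 and 1.42 to between 0.124 and 0.276 CPM and the sodium channel subunit gene Scnn1g from between 0.877 and 1.58 to between 0 and 0.474 CPM (by edgeR, adjusted p = 0.00284, 0.00339 and 0.0465). Rasl10a, a small GTPase gene, fell with a log2 fold change of -2.63 (by edgeR, adjusted p = 0.0247). Several of these genes were near the level of 3 counts in the CREX group and may likewise have passed the filter through the EX group. In fits on 7 mice, edgeR did not call Cx3cr1 without EX replicate 3 or CREX replicate 4 (adjusted p up to 0.0721) or Rasl10a without EX replicates 2 or 3 or CREX replicates 1 or 3 (adjusted p up to 0.0684). The call of Scnn1g did not hold in 5 or more of the 8 edgeR fits that each left out 1 mouse (adjusted p up to 0.107).

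**Figure D2:**
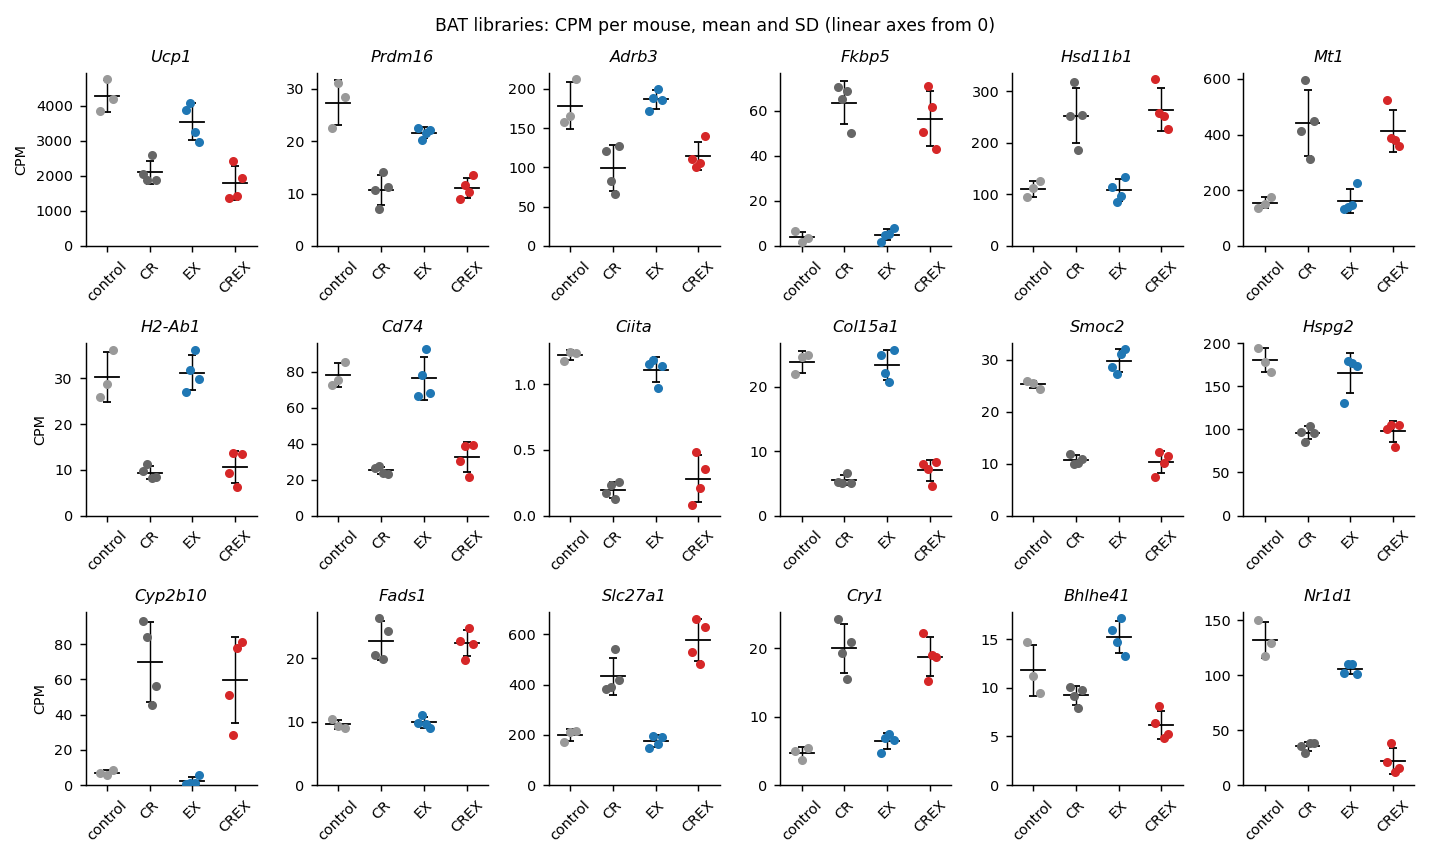
CPM of 18 genes (vertical linear axes from 0) in every BAT library, with the mean (line) and SD (bars) of the control (n = 3), CR, EX and CREX (n = 4 each) groups. For every gene drawn, all EX values (blue) lay on 1 side of all CREX values (red), such as Fkbp5 with 1.99 to 8.05 CPM in EX and 42.9 to 71.2 CPM in CREX libraries.

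Several thermogenic genes were lower in the CREX group. Of 16 brown adipocyte genes tested, 3 were downregulated, against 2.63% of all genes tested, 0 upregulated and 13 not called. The median log2 fold change was -0.34 against -0.002 for all genes. Ucp1 stood at 3878, 4073, 3248 and 2954 CPM in the EX group and at 1373, 2424, 1433 and 1924 CPM in the CREX group (log2 fold change -0.99 ± 0.19 SE, adjusted p = 0.0192 by edgeR). All 4 CREX mice lay below all 4 EX mice, and the means were 3539 ± 525 CPM (SD, n = 4) and 1788 ± 490.2 CPM (SD, n = 4). Prdm16, a transcriptional regulator that sets brown adipocyte fate, was at 22.5, 20.3, 21.6 and 22.2 CPM in EX and at 9.02, 11.7, 10.2 and 13.5 CPM in CREX mice (log2 fold change -0.97 ± 0.12 SE, adjusted p = 0.00211 by edgeR). The beta-3 adrenergic receptor gene Adrb3 fell from 171, 188, 199.9 and 186 to 111, 101, 106 and 140.5 CPM (log2 fold change -0.71 ± 0.11 SE, adjusted p = 0.00509 by edgeR). Cidea, a lipid droplet protein gene, had a log2 fold change of -0.17, the thyroid hormone-activating deiodinase gene Dio2 -0.84 and the mitochondrial coactivator gene Ppargc1a -0.47 (by edgeR, adjusted p = 0.26, 0.466 and 0.321). Dio2 varied within groups, from 36.1 to 105 CPM in EX and from 11.6 to 70.5 CPM in CREX libraries. The fatty acid elongase gene Elovl3 was higher in 3 CREX libraries than in any EX library (log2 fold change 0.83, edgeR adjusted p = 0.0555), with CREX replicate 3 at 70.1 CPM inside the EX range of 50.9 to 76.0 CPM, and Elovl3 was called without CREX replicate 3 (by edgeR, adjusted p = 0.00463). Elovl3 was also called in 5 of the 10 other settings run, DESeq2 among them. Ucp1 was not called without a filter on low counts (log2 fold change -0.98, adjusted p = 0.0509 by edgeR) or with the muscle marker sum as a covariate and EX replicate 3 left out (log2 fold change -1.12, adjusted p = 0.0556 by edgeR). When single mice were left out, edgeR did not call Ucp1 without EX replicate 2 (adjusted p up to 0.0584).

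No gene was called among 79 nuclear-encoded respiratory chain genes (median log2 fold change 0.02), 77 mitochondrial ribosome genes (-0.03), 13 protein genes of the mitochondrial genome (-0.10) and 85 cytosolic ribosome genes (-0.02). Likewise 0 of 20 genes of branched-chain amino acid breakdown and 0 of 22 heat shock genes passed. Of 23 adrenergic and thyroid input genes 2 were downregulated, Adrb3 among them, and Mc2r, the adrenocorticotropin receptor gene, was upregulated (log2 fold change 0.92 ± 0.22 SE, adjusted p = 0.0321 by edgeR). Among 14 genes of creatine and calcium cycling, other routes of heat production, Alpl and Itpr2 were downregulated with log2 fold changes of -1.18 and -0.67 (by edgeR, adjusted p = 0.00108 and 0.00763). Alpl encodes the tissue-nonspecific alkaline phosphatase, placed in mitochondria of brown adipocytes, and stood at 16.6 to 21.9 CPM in EX and 7.54 to 9.26 CPM in CREX libraries. With 1 mouse left out, edgeR did not call Itpr2 without EX replicate 4 (adjusted p up to 0.0125 but a fold change under 1.5). The call of Mc2r did not hold in 5 or more of the 8 edgeR fits that each left out 1 mouse (adjusted p up to 0.0824).

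Most genes of a list that the glucocorticoid receptor is known to drive were higher in the CREX group. Of 27 tested, 10 were upregulated, against 1.86% of all genes tested, 0 were downregulated and 17 not called. A positive sign was seen for 24, and the median log2 fold change was 0.70. The list was chosen with earlier results of these data known. Fkbp5 stood at 1.99, 4.85, 5.47 and 8.05 CPM in the EX group and at 50.6, 71.2, 61.7 and 42.9 CPM in the CREX group. FKBP5 is a chaperone of the receptor complex and a sensitive readout of glucocorticoid exposure, and its groups were far apart (log2 fold change 3.46 ± 0.40 SE, adjusted p = 0.00505 by edgeR). Hif3a rose from 0.0924, 0.320, 0.324 and 0.350 to 1.52, 1.51, 1.86 and 0.987 CPM (log2 fold change 2.39 ± 0.36 SE, adjusted p = 0.00509 by edgeR). It passed the low-count filter through the CREX group alone, where it was higher. The metallothionein gene Mt1 rose from 134, 139.6, 148 and 226 to 525, 388, 381 and 359.8 CPM (log2 fold change 1.35 ± 0.19 SE, adjusted p = 0.00623 by edgeR), without overlap of the groups. Tsc22d3, which encodes the leucine zipper protein GILZ, had 13.6 to 32.3 CPM in EX and 57.0 to 109 CPM in CREX libraries (log2 fold change 1.63 ± 0.32 SE, adjusted p = 0.0273 by edgeR), and the transcription factor gene Zbtb16 had 7.76 to 26.3 and 52.9 to 103 CPM (log2 fold change 2.17 ± 0.47 SE, adjusted p = 0.0394 by edgeR). The remaining upregulated members were Map3k6, Sult1a1, Acot1, Cebpd and Fam107a, with log2 fold changes of 1.13, 1.33, 2.02, 0.99 and 1.61. In fits on 7 mice, edgeR did not call Map3k6 without EX replicates 2 or 3 or CREX replicate 4 (adjusted p up to 0.0559). The calls of Tsc22d3, Acot1, Sult1a1, Cebpd, Zbtb16 and Fam107a did not hold in 5 or more of the 8 edgeR fits that each left out 1 mouse (adjusted p up to 0.116).

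Other classical members did not pass the test. Per1 had a log2 fold change of 0.28, the kinase gene Sgk1 of -0.42 and the phosphatase gene Dusp1 of -0.71 (by edgeR, adjusted p = 0.694, 0.307 and 0.132). The receptor gene itself, Nr3c1, was at 64.2 to 68.8 CPM in EX and 58.1 to 73.3 CPM in CREX libraries (log2 fold change -0.04, edgeR adjusted p = 0.771). Hsd11b1, whose enzyme regenerates active glucocorticoid inside cells, rose from 115, 85.5, 97.2 and 135 to 323, 258, 252 and 226 CPM (log2 fold change 1.29 ± 0.15 SE, adjusted p = 0.00259 by edgeR), with every CREX value above every EX value. Without EX replicate 3 the list had 3 upregulated genes (Fkbp5, Mt1 and Hif3a) and a median of 0.68, so its direction held while most single calls did not. Of these genes, Hif3a was in the test only through its CREX values. The core AGAACA of the receptor's binding motif, on either strand, was in the promoter window (250 bases before to 50 after the start, RefSeq, GRCm38.p6) of 6 of the 24 members with a window, against 15.02% of the 9989 tested genes with one. A stretch before the start of Mt1, the most abundant called member of this list, is shown for the metal response element that metallothionein promoters are known for, 120 bases in GRCm38.p6 read 5′ to 3′, with the element's core TGCACNC (N is any base) in capitals. The core was found, on either strand, in 12.6% of all windows.
Mt1, chr8:94178969-94179088, plus strand: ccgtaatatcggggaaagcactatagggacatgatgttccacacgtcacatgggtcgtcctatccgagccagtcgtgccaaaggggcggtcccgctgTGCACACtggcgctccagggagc

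All 7 genes tested for antigen display by MHC class II were downregulated, against 2.63% of all genes tested, with a median log2 fold change of -1.28. The list held 11 genes, and those not tested did not pass the low-count filter. Class II molecules present peptides to helper T cells, and they are made by dendritic cells, macrophages and B cells and, at lower levels, by adipocytes and endothelium. H2-Ab1 stood at 27.0, 31.9, 36.1 and 29.9 CPM in the EX group and at 9.34, 13.6, 6.23 and 13.3 CPM in the CREX group. The group ranges of this class II beta chain gene (chr17:34263227-34269418) were well apart (log2 fold change -1.56 ± 0.24 SE, adjusted p = 0.00924 by edgeR). H2-Aa, the alpha chain, stood at 41.5, 44.3, 55.1 and 40.3 CPM in EX and 16.8, 20.8, 12.4 and 24.99 CPM in CREX mice (log2 fold change -1.28 ± 0.21 SE, adjusted p = 0.0119 by edgeR). The invariant chain gene Cd74 stood at 66.3, 78.1, 92.4 and 67.9 and 30.2, 38.8, 21.4 and 39.2 CPM (log2 fold change -1.24 ± 0.20 SE, adjusted p = 0.0118 by edgeR), and H2-Eb1 at 25.7 to 32.2 and 6.65 to 14.3 CPM (log2 fold change -1.40 ± 0.21 SE, adjusted p = 0.00823 by edgeR). For each of these genes the lowest CREX library was CREX replicate 3. The peptide-loading genes H2-DMa and H2-DMb1 fell with log2 fold changes of -1.11 and -1.16 (by edgeR, adjusted p = 0.0105 and 0.0166).

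Ciita, the coactivator that switches class II genes on, stood at 1.15, 1.19, 0.972 and 1.14 CPM in EX and 0.0798, 0.488, 0.206 and 0.355 CPM in CREX mice (log2 fold change -1.98 ± 0.40 SE, adjusted p = 0.0173 by edgeR). Ciita passed the low-count filter through the EX group, where it was higher. All 7 calls held in each of the 8 fits that left out 1 mouse. With the replicate numbers as a block Cd74 and H2-Aa were not called, and without the mice with the lowest and highest muscle sums (EX replicate 4 and CREX replicate 3) Ciita was not called. With the muscle marker sum as a covariate and EX replicate 3 left out, 2 of the 7 genes were called, H2-Eb1 and H2-DMa. In the same libraries the 17 macrophage markers tested had a median log2 fold change of -0.57 with 13 lower, and the 19 in the table summed to 113, 119.7, 176 and 109 CPM in EX and 133, 84.1, 73.9 and 101 CPM in CREX libraries. The 10 B cell markers, of which Cd79a was the 1 that passed the filter, summed to 2.59, 1.601, 2.23 and 2.76 CPM in EX and 0.200, 0.532, 0.124 and 0.513 CPM in CREX libraries. The 9 dendritic cell markers summed to 15.3 to 18.2 CPM in EX and 11.8 to 13.5 CPM in CREX libraries, and no marker of these 3 cell types was at 0 in all 8 libraries. Their part in the class II result was not tested.

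The stretches upstream of 3 class II genes are shown because class II promoters carry a conserved X box and an inverted CCAAT, the Y box, close to the start. Each is the 120 bases before the RefSeq start in GRCm38.p6, read 5′ to 3′ along the gene. Capitals mark CCAAT on either strand (CCAAT or ATTGG) and the longest run of letters that H2-Eb1 and H2-DMb1 share.
H2-Aa, chr17:34287824-34287943, minus strand: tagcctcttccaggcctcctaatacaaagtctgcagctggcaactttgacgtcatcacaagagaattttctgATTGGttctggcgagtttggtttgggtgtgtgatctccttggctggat
H2-Eb1, chr17:34305747-34305866, plus strand: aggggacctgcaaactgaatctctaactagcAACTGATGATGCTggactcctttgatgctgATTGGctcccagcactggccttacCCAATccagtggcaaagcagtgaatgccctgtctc
H2-DMb1, chr17:34153071-34153190, plus strand: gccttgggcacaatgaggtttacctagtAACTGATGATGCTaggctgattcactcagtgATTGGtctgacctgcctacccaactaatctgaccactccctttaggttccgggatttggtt

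ATTGG began 48 bases before the start in H2-Aa, 59 in H2-Eb1 and 61 in H2-DMb1. CCAAT on either strand was found in 37.4% of the 32851 promoter windows of 300 bases, so its presence alone is common. The shared run of 13 letters began 89 and 92 bases before the start of H2-Eb1 and H2-DMb1 and was found in 3 of the 32851 windows, on either strand, the third being that of Slc39a10. H2-DMa did not share this placing. Its window at chr17:34122582-34122881 held no CCAAT on either strand, and that at chr17:34125268-34125567 held ATTGG 198 bases before the start. The X box core, in the exact form searched for, was found in 0 of the 4 class II genes with a window. An exact search misses variants of a motif, so it cannot decide whether these genes carry an X box. The shared run was not compared with X box variants. H2-Ab1, Cd74 and Ciita had no window.

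Further immune genes were lower, with some exceptions. Of 34 interferon response genes, 4 were downregulated, against 2.63% of all genes tested, 0 upregulated and 31 had a negative sign (median log2 fold change -0.47). Ifi27l2a fell from 30.2, 39.2, 35.3 and 33.96 to 15.8, 23.1, 15.7 and 20.0 CPM (log2 fold change -0.90 ± 0.13 SE, adjusted p = 0.00505 by edgeR). Ifi44, Ifit2 and the guanylate-binding protein gene Gbp4 had log2 fold changes of -1.41, -0.91 and -1.02 (by edgeR, adjusted p = 0.00835, 0.0221 and 0.033). Of 20 class I and immunoproteasome genes, the nonclassical H2-Q6 (-1.81) and H2-Q4 (-0.89) were downregulated, and the median was -0.04. These paralogs are near-identical, so reads may have been split between them. Among 24 complement and chemokine genes 4 were downregulated and 1 upregulated, against 2.63% and 1.86% of all genes tested. Cxcl14 fell from 11.7, 10.4, 10.9 and 14.9 to 5.07, 5.28, 5.90 and 5.13 CPM (log2 fold change -1.17 ± 0.13 SE, adjusted p = 0.00143 by edgeR), Cx3cl1, the ligand of CX3CR1, had a log2 fold change of -1.81, and the complement protease genes C1s1 and C2 had -0.64 and -0.69 (by edgeR, adjusted p = 0.00495, 0.0119 and 0.0308). The B cell attractant gene Cxcl13 rose from between 0.219 and 1.19 to between 1.73 and 5.47 CPM (log2 fold change 2.75 ± 0.53 SE, adjusted p = 0.0204 by edgeR). A pair of macrophage genes rose against the sign of their list, the efferocytosis receptor gene Mertk (0.68) and the lipopolysaccharide co-receptor gene Cd14 (1.0). When single mice were left out, edgeR did not call Cxcl13 without EX replicate 3 (adjusted p up to 0.0629), C1s1 without EX replicate 3 or CREX replicate 1 (adjusted p up to 0.0307 but a fold change under 1.5) or H2-Q6 without EX replicate 2 or CREX replicates 1, 2 or 4 (adjusted p up to 0.0681). The calls of Mertk, Cd14, H2-Q4, Ifit2, Gbp4 and C2 did not hold in 5 or more of the 8 edgeR fits that each left out 1 mouse (adjusted p up to 0.0932).

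Matrix genes were lower across several classes. Basement membranes are sheets of type IV collagen, laminins, nidogens and perlecan around each adipocyte and capillary. Of 18 basement membrane genes 5 were downregulated, against 2.63% of all genes tested, 0 upregulated and 17 had a negative sign (median log2 fold change -0.44). Without EX replicate 3, 3 of 19 tested were downregulated and the median was -0.37. The perlecan gene Hspg2 stood at 130.3, 179.6, 177 and 173 CPM in EX and 101, 105, 80.1 and 105 CPM in CREX mice (log2 fold change -0.76 ± 0.12 SE, adjusted p = 0.00671 by edgeR), and the groups did not overlap. Nid2, Lamc3, Lama2 and Col4a3 had log2 fold changes of -0.99, -0.72, -0.66 and -0.98 (by edgeR, adjusted p = 0.00617, 0.0166, 0.0193 and 0.032). Col4a1, the main type IV chain, was lower in every CREX library (130.4 to 158 CPM against 179 to 184 CPM), with a change of under 1.5-fold (log2 fold change -0.37 ± 0.07 SE, adjusted p = 0.014 by edgeR). With 1 mouse left out, edgeR did not call Lamc3 without CREX replicate 4 (adjusted p up to 0.0512) or Lama2 without EX replicate 3 or CREX replicates 1 or 4 (adjusted p up to 0.0577). The call of Col4a3 did not hold in 5 or more of the 8 edgeR fits that each left out 1 mouse (adjusted p up to 0.0866).

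Of 13 other interstitial collagens 3 were downregulated, against 2.63% of all genes tested, and 12 had a negative sign (median -1.30). Without EX replicate 3, 4 were downregulated and the median was -0.59. Col15a1, a collagen that links basement membranes to the matrix around them, fell from 25.03, 22.1, 20.8 and 25.8 to 7.94, 7.23, 4.54 and 8.29 CPM (log2 fold change -1.75 ± 0.17 SE, adjusted p = 0.00108 by edgeR). EX replicate 3 had the lowest Col15a1 value of the EX group. Col13a1 had a log2 fold change of -1.17 and Col6a2 of -1.34 (by edgeR, adjusted p = 0.00793 and 0.0246). Smoc2, a matricellular calcium-binding protein gene, fell from 28.6, 27.3, 31.1 and 32.0 to 7.50, 12.1, 10.2 and 11.5 CPM (log2 fold change -1.53 ± 0.14 SE, adjusted p = 0.000462 by edgeR), while its relative Smoc1 rose from 70.5, 65.8, 61.6 and 72.8 to 111, 111, 109 and 107 CPM (log2 fold change 0.69 ± 0.06 SE, adjusted p = 0.000542 by edgeR). Sparc, a collagen-binding protein gene, had a log2 fold change of -0.71 and Prelp of -0.72, and the other 30 of 34 proteoglycan and matricellular genes did not pass (median -0.58, -0.16 without EX replicate 3). Pcolce, which enhances procollagen processing, was the 1 gene of 23 called for collagen folding and crosslinking (log2 fold change -0.74 ± 0.16 SE, adjusted p = 0.0242 by edgeR). Among 22 proteases and inhibitors, Mmp9 fell (-1.59) and Timp3 rose (0.64). In fits on 7 mice, edgeR did not call Mmp9 and Col6a2 without CREX replicates 2, 3 or 4 (adjusted p up to 0.0704). The calls of Prelp, Pcolce and Timp3 did not hold in 5 or more of the 8 edgeR fits that each left out 1 mouse (adjusted p up to 0.0884).

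Fibrillar collagens, the ropes of the interstitial matrix, depended on EX replicate 3. Col1a1 stood at 34.5, 39.0, 349.9 and 32.7 CPM in the EX group and at 12.2, 14.0, 11.5 and 12.2 CPM in the CREX group. All CREX libraries lay below all EX libraries, but the 349.9 CPM of EX replicate 3 widened the spread and the gene was not called (log2 fold change -3.21 ± 0.99 SE, adjusted p = 0.107 by edgeR). Without this library the change was smaller and was called (log2 fold change -1.51 ± 0.10 SE, adjusted p = 0.00047 by edgeR). Col3a1 behaved alike, at 123.3, 120.5, 454 and 92.0 CPM in EX and 39.9, 41.4, 37.3 and 44.3 CPM in CREX mice, with an edgeR adjusted p of 0.0617 with and 0.00108 without EX replicate 3. Of the 8 fibrillar genes tested, Col27a1 was called with all libraries (75.6, 62.9, 63.5 and 60.2 CPM against 36.2, 35.8, 33.6 and 37.2 CPM, log2 fold change -0.88 ± 0.08 SE, adjusted p = 0.000462 by edgeR). Without EX replicate 3, 6 of 8 were downregulated (Col1a1, Col1a2, Col3a1, Col5a1, Col5a2 and Col27a1), and the median log2 fold change moved from -1.81 to -0.91. The log2 fold changes of Col1a2, Col5a1 and Col5a2 without it were -0.92, -1.10 and -0.71 (by edgeR, adjusted p = 0.00348, 0.00255 and 0.00681). Tnc and Thbs4, of tendon and injured matrix, stood at 63.8 and 59.9 CPM in EX replicate 3 and at no more than 2.01 and 2.35 CPM in the other 7 libraries, and Thbs4 had a log2 fold change of -3.88 with and 1.40 without it, neither called (by edgeR, adjusted p = 0.304 and 0.434).

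**Figure D3:**
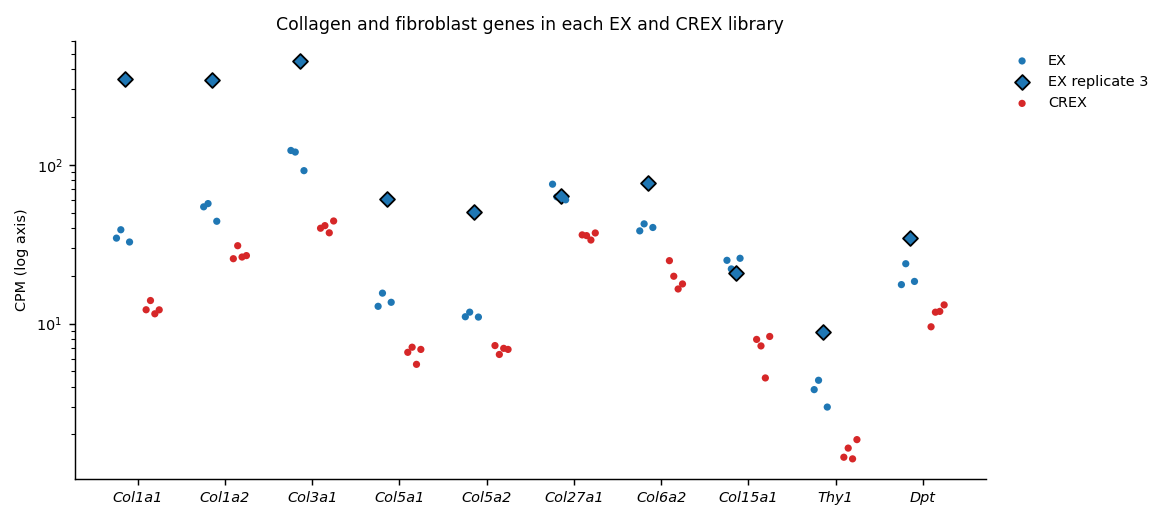
CPM (vertical log axis) of 8 collagen genes and of the fibroblast genes Thy1 and Dpt in each EX (blue) and CREX (red) library, with EX replicate 3 as outlined diamonds. EX replicate 3 lies above the other EX libraries for Col1a1 (349.9 CPM), Col1a2, Col3a1, Col5a1, Col5a2, Col6a2, Thy1 and Dpt, and not for Col27a1 and Col15a1, and every CREX value lies below every EX value of the same gene.

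Markers of stromal cells were lower as well. All 14 fibroblast and progenitor markers had a negative sign (median log2 fold change -0.54, -0.34 without EX replicate 3). Thy1 (-1.67, -1.24 without EX replicate 3) and Dpt (-1.04, -0.78 without EX replicate 3) were downregulated. Thy1 stood at 3.83, 4.39, 8.87 and 2.98 CPM in EX and 1.44, 1.64, 1.40 and 1.86 CPM in CREX mice. The sum of the fibroblast markers was 267, 318, 417 and 271 CPM in EX and 221, 229, 231 and 230.2 CPM in CREX libraries, and the part of this difference in the matrix results was not tested. Of 11 mural markers, for smooth muscle and pericytes, Acta2 and the potassium channel subunit gene Kcnj8 were downregulated (-0.95 and -0.66, edgeR adjusted p = 0.00716 and 0.0224), and 10 were lower. None of 12 endothelial markers was called (median -0.23). Of 9 Schwann cell and nerve markers, S100b and Ngfr were downregulated. S100b, which is also made by adipocytes, fell from 44.0, 39.5, 38.4 and 45.6 to 15.4, 19.8, 18.4 and 19.1 CPM and shared the smallest adjusted p of all genes with Slc27a1 (log2 fold change -1.21 ± 0.09 SE, adjusted p = 0.000281 by edgeR). The angiogenic factor and receptor genes Fgf1, Aplnr, Pdgfc and Ntn1 were downregulated among 24 tested, with log2 fold changes of -1.27, -0.86, -0.76 and -0.83. When single mice were left out, edgeR did not call Thy1 without CREX replicates 1 or 3 (adjusted p up to 0.0596) or Kcnj8 without EX replicate 2 or CREX replicates 1 or 3 (adjusted p up to 0.0663). The calls of Dpt, Ngfr, Aplnr, Pdgfc and Ntn1 did not hold in 5 or more of the 8 edgeR fits that each left out 1 mouse (adjusted p up to 0.124).

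Lipid metabolism changed in selected steps. The fatty acid transporter gene Slc27a1, whose protein FATP1 takes up long-chain fatty acids, rose in all CREX mice. Slc27a1 stood at 149, 197, 164 and 193 CPM in the EX group and at 532, 662, 484 and 629 CPM in the CREX group (log2 fold change 1.71 ± 0.12 SE, adjusted p = 0.000281 by edgeR). Of 40 genes of fatty acid uptake and beta oxidation, Slc27a1 and the thioesterase genes Acot1 (2.02) and Acot2 (0.72) were upregulated, the binding protein gene Fabp3 was downregulated (-1.11), and the median was 0.09. Acot1 and Acot2 are close paralogs, so reads may have been split between them. The desaturase gene Fads1, which acts in the making of polyunsaturated fatty acids, rose from 9.84, 11.02, 9.60 and 9.06 to 22.8, 19.7, 24.7 and 22.3 CPM (log2 fold change 1.18 ± 0.09 SE, adjusted p = 0.000328 by edgeR). Fads3 rose as well (0.89, edgeR adjusted p = 0.00396), while the other 25 of 27 fatty acid synthesis genes did not pass (median 0.30, 21 higher). Fasn was at 19172, 8275, 11623 and 16838 CPM in EX and at 20117, 22290.1, 20713 and 19420.1 CPM in CREX mice. Its groups did not overlap, but EX replicates 1 and 4 reached 19172 and 16838 CPM and the gene was not called (log2 fold change 0.56 ± 0.24 SE, adjusted p = 0.185 by edgeR). Neither Acaca (0.44) nor Scd1 (0.17) was called (by edgeR, adjusted p = 0.396 and 0.619). With 1 mouse left out, edgeR did not call Fabp3 without EX replicate 3 or CREX replicates 1, 2 or 3 (adjusted p up to 0.0652). The call of Acot2 did not hold in 5 or more of the 8 edgeR fits that each left out 1 mouse (adjusted p up to 0.0871).

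In the sterol pathway Fdft1, squalene synthase, rose from 92.3, 71.1, 89.9 and 113 to 195, 214, 314 and 208 CPM (log2 fold change 1.34 ± 0.18 SE, adjusted p = 0.0054 by edgeR), and Cyp51 rose (0.59, edgeR adjusted p = 0.0329), while 21 of 23 genes did not pass. Lpin1, a phosphatidate phosphatase and coactivator gene, was the 1 called gene of 19 for triglyceride synthesis (log2 fold change 0.69 ± 0.17 SE, adjusted p = 0.0437 by edgeR). The calls of Cyp51 and Lpin1 did not hold in 5 or more of the 8 edgeR fits that each left out 1 mouse (adjusted p up to 0.109). Of 21 genes of lipolysis and the lipid droplet, Adrb3 was the 1 gene called. Apoe, which carries lipids, fell from 445, 487, 555 and 423 to 307, 222, 245 and 244 CPM (log2 fold change -0.91 ± 0.12 SE, adjusted p = 0.00284 by edgeR).

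The citrate cycle and glycolysis lists had 1 upregulated and 0 downregulated genes each. The glycogen and pentose phosphate lists had 1 upregulated and 1 downregulated gene each, and over all genes tested 4.48% were called. Pyruvate carboxylase, encoded by Pcx and supplying oxaloacetate, stood at 547, 492, 467 and 557 CPM in EX and 812, 836, 779.7 and 764 CPM in CREX mice (log2 fold change 0.62 ± 0.07 SE, adjusted p = 0.0021 by edgeR), and it was the 1 gene called of 25 in the citrate cycle list. Aldoc was called among 33 glycolysis genes (1.80), at 0.274 to 0.700 CPM in EX and 1.51 to 3.51 CPM in CREX libraries. Of 20 glycogen genes Ppp1r3c rose (0.64) and Stbd1 fell (-0.71), and of 11 pentose phosphate genes Rbks rose (0.59) and Prps2 was lower (-0.65, edgeR adjusted p = 0.0477), though not called by DESeq2 (log2 fold change -0.65, adjusted p = 0.0722 by DESeq2), after thinning or without a filter on low counts. Psat1, of serine synthesis, stood at 2.40, 3.29, 2.96 and 2.80 CPM in EX and 5.83, 5.63, 6.28 and 6.87 CPM in CREX libraries, whereas Phgdh, the step before it, was at 2.54 to 9.56 and 2.97 to 4.38 CPM and was not called (log2 fold change -0.53 ± 0.35 SE, adjusted p = 0.384 by edgeR). Aldh1l1 (0.96) and Gldc (1.35), of folate and glycine metabolism, were the other 2 called of 23 serine and one-carbon genes. Proline genes divided by direction, with Prodh, which breaks proline down, upregulated (log2 fold change 1.14 ± 0.24 SE, adjusted p = 0.0273 by edgeR) and Aldh18a1 and Pycr1, which make it, downregulated (-1.10 and -2.03, edgeR adjusted p = 0.033 and 0.0139). Gpt2, alanine aminotransferase, and Glul, glutamine synthetase, rose (0.99 and 0.77, edgeR adjusted p = 0.0229 and 0.0189). In fits on 7 mice, edgeR did not call Pcx without EX replicate 3 (adjusted p up to 0.00493 but a fold change under 1.5), Glul without EX replicates 2 or 3 (adjusted p up to 0.0545) or Rbks without EX replicates 2 or 3 or CREX replicates 2 or 4 (adjusted p up to 0.0713). Nor did it call Gpt2 without EX replicates 3 or 4 or CREX replicates 3 or 4 (adjusted p up to 0.0617). The call of Prps2 was lost in all 8 edgeR fits that each left out 1 mouse (adjusted p up to 0.115). The calls of Ppp1r3c, Stbd1, Gldc, Prodh and Aldh18a1 did not hold in 5 or more of these 8 edgeR fits (adjusted p up to 0.111).

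All called genes of the detoxification lists were upregulated. Of 36 genes of glutathione and conjugation 5 were upregulated, against 1.86% of all genes tested, 0 downregulated and 32 had a positive sign (median 0.23). The glutathione transferase gene Gstt2 rose from 16.2, 16.5, 15.2 and 18.2 to 36.6, 41.1, 33.6 and 44.6 CPM (log2 fold change 1.23 ± 0.10 SE, adjusted p = 0.000315 by edgeR). Mgst3, Sult1a1, Ugt1a7c and Ugt1a6a had log2 fold changes of 0.76, 1.33, 1.36 and 0.95. The 2 glucuronosyltransferases share exons, so their counts cannot be fully separated. Of 16 cytochrome P450 genes tested, Cyp2b10, Cyp4b1 and Cyp2d22 were upregulated. Cyp4b1 rose from 14.2, 25.8, 18.2 and 34.7 to 82.2, 85.6, 93.6 and 115 CPM (log2 fold change 2.01 ± 0.28 SE, adjusted p = 0.008 by edgeR) and Cyp2d22 from between 31.6 and 43.1 to between 56.5 and 64.7 CPM (log2 fold change 0.77 ± 0.10 SE, adjusted p = 0.00255 by edgeR). Of 24 antioxidant and metallothionein genes, Mt1 was the 1 gene called (median 0.06). When single mice were left out, edgeR did not call Ugt1a7c without EX replicate 2 or CREX replicates 1 or 3 (adjusted p up to 0.056). The call of Ugt1a6a did not hold in 5 or more of the 8 edgeR fits that each left out 1 mouse (adjusted p up to 0.0989).

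Clock genes shifted in both directions. The clock is a loop in which CLOCK and BMAL1 (Arntl) activate E-box genes, PER and CRY repress them, and REV-ERB (Nr1d1), a repressor, acts at other sites. Nr1d1 stood at 102, 110.0, 109.9 and 101 CPM in the EX group and at 21, 38.3, 12.3 and 15.1 CPM in the CREX group. All CREX values were below all EX values (log2 fold change -2.30 ± 0.35 SE, adjusted p = 0.0131 by edgeR). Cry1 rose from 4.71, 6.91, 7.45 and 6.61 to 22.2, 15.2, 19.0 and 18.8 CPM (log2 fold change 1.54 ± 0.16 SE, adjusted p = 0.00108 by edgeR). Rora rose (0.63, edgeR adjusted p = 0.0168) and Bhlhe41, an E-box repressor gene also called Dec2, fell from 15.9, 14.7, 17.1 and 13.3 to 6.43, 8.16, 4.87 and 5.21 CPM (log2 fold change -1.31 ± 0.16 SE, adjusted p = 0.00223 by edgeR). Rora was not called with the muscle marker sum as a covariate (log2 fold change 0.55, under 1.5-fold, with edgeR adjusted p = 0.0204). Of the 21 clock genes tested 16 did not pass. Arntl had a log2 fold change of 0.95 and Dbp of -0.89 (by edgeR, adjusted p = 0.126 and 0.149). Dbp was lower in every CREX library, at 33.1, 47.0, 19.7 and 15.8 CPM against 55.2, 55.7, 48.8 and 52.7 CPM, and Dbp was called without CREX replicate 2 (by edgeR, adjusted p = 0.0379). Of 19 immediate early genes, Junb was downregulated (log2 fold change -0.75 ± 0.15 SE, adjusted p = 0.0168 by edgeR) and 18 did not pass. With 1 mouse left out, edgeR did not call Rora without EX replicate 4 or CREX replicate 3 (adjusted p up to 0.0342 but a fold change under 1.5) or Junb without EX replicate 1 or CREX replicates 1 or 4 (adjusted p up to 0.052).

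The stretches upstream of Cry1 and Bhlhe41 are shown because both are clock genes with an E-box near the start while their levels moved in opposite directions. They are the 120 and 160 bases before the RefSeq start in GRCm38.p6, with the E-box CACGTG in capitals.
Cry1, chr10:85185055-85185174, minus strand: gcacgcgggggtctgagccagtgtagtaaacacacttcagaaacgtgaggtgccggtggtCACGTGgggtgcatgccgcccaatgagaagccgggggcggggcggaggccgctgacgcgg
Bhlhe41, chr6:145865421-145865580, minus strand: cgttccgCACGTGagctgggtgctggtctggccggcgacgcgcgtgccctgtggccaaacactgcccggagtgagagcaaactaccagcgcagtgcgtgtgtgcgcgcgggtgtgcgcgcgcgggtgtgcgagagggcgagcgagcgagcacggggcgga
The E-box began 60 and 153 bases before the start. It was found in 7.15% of all windows of 300 bases, in 11.7% of those of the 9989 tested genes with a window and in 5 of the 16 clock genes with a window.

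Among secreted and hormone pathway genes, both directions were seen. Of 29 growth hormone, IGF and insulin genes 5 were upregulated and 2 downregulated, against 1.86% and 2.63% of all genes tested. Socs2, an inhibitor induced by growth hormone, rose from 3.19, 4.39, 4.21 and 2.14 to 17.7, 7.67, 23.7 and 8.88 CPM (log2 fold change 2.05 ± 0.43 SE, adjusted p = 0.0321 by edgeR). The IGF-binding protein genes divided, with Igfbp3 (log2 fold change 1.13 ± 0.18 SE, adjusted p = 0.00909 by edgeR) and Igfbp4 (1.0) upregulated and Igfbp5 downregulated (-1.06). Foxo3, a transcription factor active when insulin is low, and Sesn1, of the nutrient-sensing sestrins, rose (0.66 and 0.86). Grb14, an adaptor that inhibits the insulin receptor, fell from 40.3, 35.0, 39.5 and 46.7 to 10.4, 13.6, 18.1 and 15.3 CPM (log2 fold change -1.5 ± 0.16 SE, adjusted p = 0.00181 by edgeR). Of 29 adipokine genes 3 were upregulated and 2 downregulated, and Retn, which encodes resistin, rose from 35.8, 47.2, 37.9 and 55.6 to 86.3, 66.2, 69.0 and 88.7 CPM (log2 fold change 0.81 ± 0.16 SE, adjusted p = 0.0175 by edgeR). Of the signalling lists, Bmp5 was the 1 gene called of 25 for BMP, activin and TGF-beta (log2 fold change -1.41 ± 0.26 SE, adjusted p = 0.0119 by edgeR), Axin2 of 14 for Wnt (-0.95) and Ccnd1, cyclin D1, of 14 for proliferation (-1.58, edgeR adjusted p = 0.0187). Herpud1 was called among 24 genes of endoplasmic reticulum stress (0.66), Foxo3 among 19 of autophagy and atrophy, and Cebpd among 19 nuclear receptors and lipid regulators. Over all genes tested 4.48% were called, so 1 call in such a list is a result about the gene and not about its pathway. In fits on 7 mice, edgeR did not call Ccnd1 without CREX replicate 4 (adjusted p up to 0.0545) or Sesn1 without EX replicates 1, 2 or 3 (adjusted p up to 0.0747). The calls of Igfbp5, Igfbp4, Axin2, Socs2, Herpud1 and Foxo3 did not hold in 5 or more of the 8 edgeR fits that each left out 1 mouse (adjusted p up to 0.108).

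**Figure D4:**
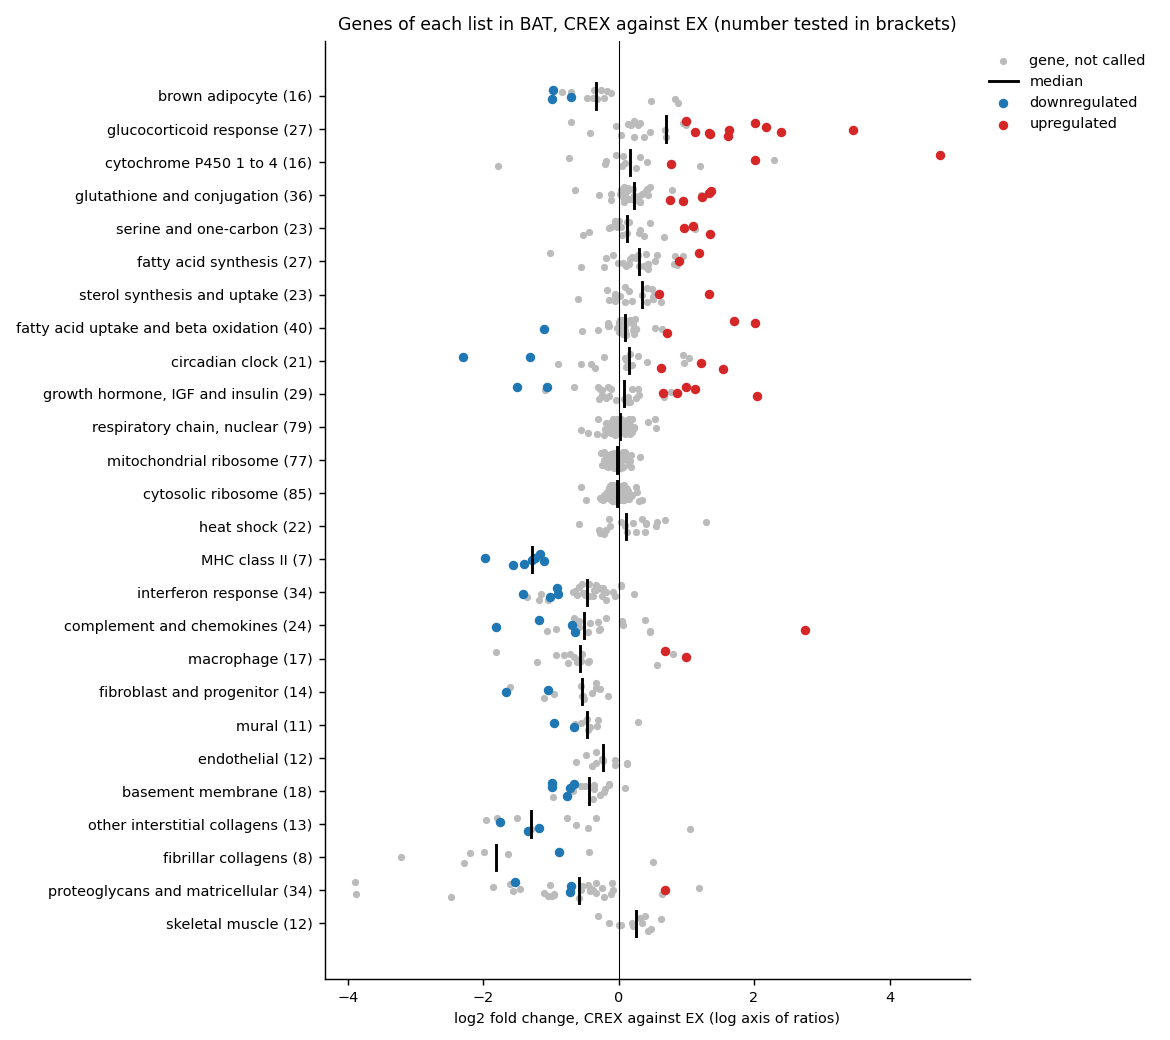
Log2 fold changes, CREX against EX (horizontal axis), of the tested genes of 26 lists (rows), with upregulated genes in red, downregulated genes in blue, genes not called in grey and the median as a black bar. The MHC class II genes lie wholly below 0 (median -1.28), the glucocorticoid response genes mostly above it (median 0.70), and the respiratory chain and ribosome genes cluster at 0.

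The effect of CR was also measured without training, in 4 CR against 3 control libraries that share no mouse with the comparison above. There 13323 genes were tested, 516 were upregulated (3.87%) and 914 downregulated (6.86%), with 1 mouse fewer. Of the 594 DEGs of CREX against EX, 584 were tested there, 581 had the same sign and 433 were called in the same direction. Ucp1 had log2 fold changes of -0.99 in trained and -1.02 in sedentary mice, Fkbp5 of 3.46 and 4.03, H2-Ab1 of -1.56 and -1.70, and Nr1d1 of -2.30 and -1.90. All 7 class II genes were downregulated in both comparisons. The glucocorticoid response list had 12 upregulated and 3 downregulated genes of 26 in sedentary mice (median 0.59), where Sgk1 (-1.49, edgeR adjusted p = 0.00526) and Dusp1 (-2.0, edgeR adjusted p = 0.0148) were called. Fatty acid synthesis had 12 upregulated genes of 27 in sedentary and 2 in trained mice (medians 0.54 and 0.30). Whether these list counts differ was not tested.

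The difference of the CR effect between trained and sedentary mice was tested for each gene as an interaction. It passed for 0 of 13922 genes (0%, smallest edgeR adjusted p = 0.179). Of the 13922 genes 800 had an unadjusted p under 0.05 by edgeR, a threshold that many genes pass by chance alone. DESeq2 called 4, and edgeR with the muscle covariate and edgeR without a filter called 1 each. The gene called by all 3 of these was Mcam, an adhesion molecule of endothelium and pericytes. Mcam stood at 50.3, 51.1 and 44.7 CPM in control, 14.8, 13.8, 19.4 and 17.8 in CR, 33.4, 34.6, 31.4 and 25.1 in EX and 21.8, 20.4, 20.1 and 23.1 CPM in CREX libraries. Its log2 fold change under CR was -1.56 in sedentary and -0.55 in trained mice, and the EX libraries lay below all control libraries (interaction unadjusted p = 1.29e-05, edgeR adjusted p = 0.179). In trained mice Mcam did not reach the fold minimum with all mice (by edgeR, adjusted p = 0.0131) and did when EX replicate 4 or CREX replicate 4 was left out. DESeq2 also called Col4a1, Notch1 and Ffar2. Col4a1 had log2 fold changes of -0.37 in trained and -0.80 in sedentary mice (unadjusted p of the edgeR interaction test = 0.000209). Psat1 had 1.10 in trained and 0.12 in sedentary mice (by edgeR, adjusted p = 0.656 in the latter), with an interaction unadjusted p of 0.000183, and Bhlhe41 had -1.31 and -0.35 (unadjusted p = 0.000968). None of these passed adjustment in edgeR with the filter and no covariate. Mcam, Notch1 and Ffar2 were named after their values were seen.

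**Figure D5:**
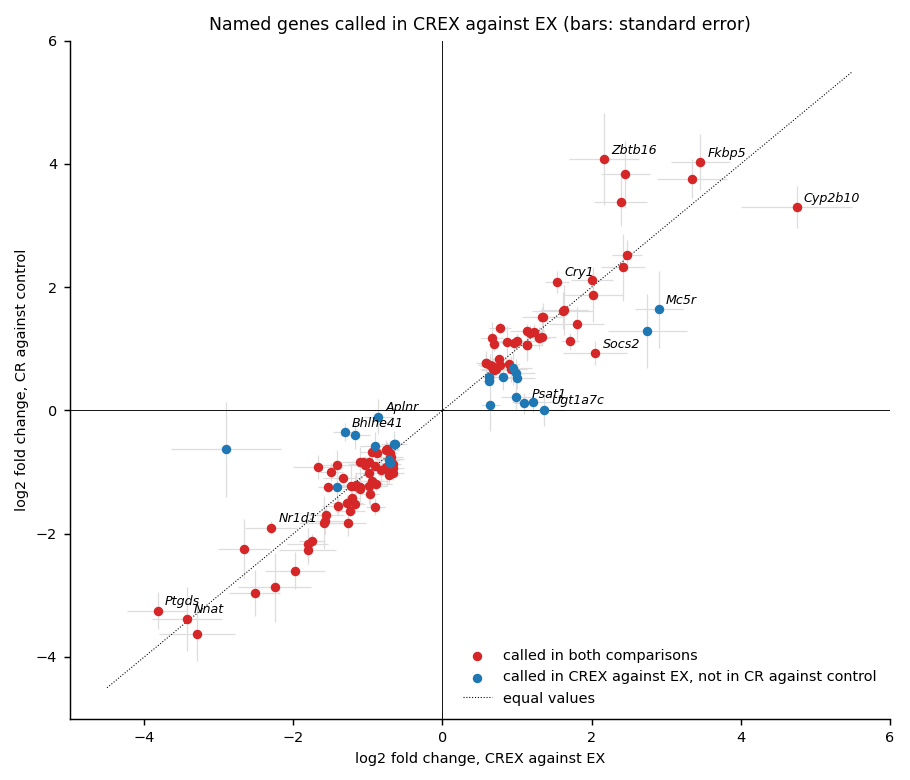
Log2 fold changes of the named genes called in CREX against EX (horizontal axis) and their values in CR against control (vertical axis), with standard errors as grey bars and the line of equal values dotted. Genes called in both comparisons are red and those called in CREX against EX alone are blue. Fkbp5 lies at 3.46 and 4.03, while Psat1 (1.10 and 0.12) lies near 0 on the vertical axis.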

How the data were processed

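BAT RNA was sequenced with 150-base reads. Per the labels and the study's methods, the authors trimmed reads with trim-galore, aligned them to the mm10 mouse genome with STAR (version 2.7.10a) and estimated gene levels with RSEM (version 1.2.28, as the submitters' processing notes give it). The annotation and the strand setting are not given in the sources used here. The deposited values were expected counts per gene symbol, of which 6.32% in the 8 libraries were not whole, and they were rounded. Of 24770 rows, 27 carried symbols turned into dates.

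CREX (n = 4) was compared with EX (n = 4) with edgeR 4.0.16 in R 4.3.3, using TMM factors, the default filter on low counts and the robust quasi-likelihood test, without covariates. DEGs had a Benjamini-Hochberg adjusted p under 0.05 over all genes tested and a fold change above 1.5. The standard error is the size of the log2 fold change divided by the root of the F statistic. CPM were scaled by TMM factors over all 15 BAT libraries. CR against control was fitted in the same way, and the interaction over the 4 groups. The scripts were tested on simulated counts. P-values measure the spread between mice.

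Genes and lists were chosen with earlier results of these data known. Named were up to 10 DEGs of largest change in each direction whose groups did not overlap, up to 4 DEGs a list by p-value, DEGs against their list's sign, a fixed set of anchor genes and the 2 most abundant markers of a cell type. H2-Aa, H2-DMb1, Zbtb16, Fam107a, Col1a2, Col5a1, Col5a2, Mcam, Notch1, Ffar2, Sgk1, Dusp1, Rora, C2, Tnc, Thbs4, Ugt1a6a and Col4a3 lie outside this rule and were chosen after their values were seen. The list of mitochondrial genes was adapted to the symbols of the table. Alternatives were DESeq2 1.42.0, other size factors and filters, thinned counts, covariates, a replicate block and leaving out each mouse. Promoter windows and gene positions are from RefSeq (GRCm38.p6), matched by symbol for 22585 genes, with 9989 tested genes in the promoter table. Some genes are not reported here. Libraries of other tissues were not analysed here.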

Additional observations from a re-analysis of the deposited data

Results flagged for a closer look

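In 38 of 342 groups of 4 values examined (11.1%), over the genes named here and the summed markers of each list, 1 library stood apart from the other 3 of its group by Dixon's test. Chance flags about 1 in 20 such groups, and genes of a list are not independent of each other. Values are given as the library that stood apart against the range of the other 3.

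EX replicate 3 accounted for 13 of these, all of them high. Its fibrillar collagens summed to 1347 CPM against 277 to 334 CPM, with Col1a1 at 349.9 CPM against 32.7 to 39.0 CPM, Col1a2 at 341 CPM against 44.1 to 57.0 CPM, Col3a1 at 454 CPM against 92.0 to 123.3 CPM, Col5a1 at 60.6 CPM against 12.8 to 15.5 CPM, Col5a2 at 50.7 CPM against 10.99 to 11.8 CPM and Col6a2 at 77.4 CPM against 38.4 to 42.5 CPM. The matrix genes of tendon and injury were high in it as well, with Tnc at 63.8 CPM against 0.686 to 2.01 CPM and Thbs4 at 59.9 CPM against 0.0438 to 0.732 CPM. Its macrophage markers summed to 176 CPM against 109 to 119.7 CPM, with Cx3cr1 at 1.34 CPM against 0.594 to 0.657 CPM. Further values were Ptgds at 7.94 CPM against 4.66 to 5.12 CPM and Pycr1 at 1.17 CPM against 0.525 to 0.600 CPM. Its muscle marker sum of 4166 CPM was within the range of the 8 libraries, and the part of dissected tissue composition in these values was not tested.

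Among the other EX libraries, EX replicate 2 had Alb at 38.9 CPM against 0 to 0.0875 CPM and a hepatocyte marker sum of 199 CPM against 58.0 to 79.6 CPM, Dusp1 at 21.5 CPM against 10.8 to 11.6 CPM, Ffar2 at 1.55 CPM against 0.739 to 0.769 CPM and Aldoc at 0.274 CPM against 0.688 to 0.700 CPM. EX replicate 4, the library with the least muscle RNA, had Cyp2b10 at 5.65 CPM against 0.739 to 1.42 CPM, Mt1 at 226 CPM against 134 to 148 CPM, Glul at 1773 CPM against 1234 to 1274 CPM, Itpr2 at 122 CPM against 91.4 to 95.7 CPM and Ntn1 at 2.32 CPM against 3.79 to 3.89 CPM. EX replicate 1 had Hif3a at 0.0924 CPM against 0.320 to 0.350 CPM and Hspg2 at 130.3 CPM against 173 to 179.6 CPM.

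In the CREX group, CREX replicate 3, the library with the most muscle RNA, had Elovl3 at 70.1 CPM against 127.9 to 128.4 CPM, Hspg2 at 80.1 CPM against 101 to 105 CPM, Fdft1 at 314 CPM against 195 to 214 CPM, Acot1 at 16.3 CPM against 46.4 to 48.4 CPM, Sesn1 at 28.3 CPM against 15.7 to 16.96 CPM and Herpud1 at 141 CPM against 90.8 to 93.4 CPM. CREX replicate 1 had Mt1 at 525 CPM against 359.8 to 388 CPM, Lingo4 at 0.758 CPM against 0.532 to 0.553 CPM and Aldoc at 3.51 CPM against 1.51 to 1.66 CPM, with a neutrophil marker sum of 3.71 CPM against 0.754 to 1.14 CPM and a fibroblast marker sum of 221 CPM against 229 to 231 CPM. CREX replicate 4 had Alb at 32.3 CPM against 0.0887 to 0.239 CPM and Rab11fip4 at 0.118 CPM against 0.443 to 0.479 CPM.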

How the results depend on the processing

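The number of DEGs depended on the setting. Against 594 DEGs (246 up, 348 down), 1 fit over all BAT libraries gave 880 (332 and 548) and DESeq2 813 (334 and 479). Size factors by the RLE method gave 589, a minimum of 10 counts in every library 554, libraries thinned to the smallest total 553, the muscle marker sum as a covariate 676 and no filter on low counts 572. Without a fold minimum there were 1061 (491 up, 570 down), and with the fold minimum and an unadjusted p 1238 (456 and 782). Chosen after seeing the data, leaving out both libraries at the ends of the muscle range gave 475, and the muscle covariate without EX replicate 3 gave 328 (137 and 191). Leaving out 1 mouse at a time gave 363 to 582 DEGs, 156 to 250 up and 203 to 332 down. For these fits, fewer samples were in the fit by construction. CR against control gave 994 to 1717 DEGs with 1 mouse left out. The interaction was called for 4 genes by DESeq2, 1 with the muscle covariate and 1 without a filter.

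Of 126 named genes that were called, 126 kept their sign under every setting run, 50 were called under every setting, 65 lost the call with at least 1 mouse left out, 11 with the muscle covariate and 1 under DESeq2. The kept signs were largely fixed in advance, as these genes were called on the same libraries. Without a filter on low counts 21 calls were lost, after thinning 5, with the stricter count minimum 1, and 40 without the libraries at the ends of the muscle range. The muscle covariate without EX replicate 3 ended 56 calls. Scnn1g, Cd14, Trf, Timp3, Lpin1, Prps2, Igfbp4, Ntn1, Cebpd, Fam107a and Col4a3 lost the call in 4 or more of the 10 settings other than leaving out 1 mouse. Genes not called that changed sign were Nr3c1 (-0.11 to 0.01 with 1 mouse left out, the latter without CREX replicate 4), Thbs4 (-4.66 to 1.40 with 1 mouse left out, the latter without EX replicate 3, and 0.70 when the muscle covariate was added) and Tnc (0.33 in the latter fit), and the cause was not tested.

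The replicate numbers of EX and CREX mice were shared, but nothing in the labels says that they pair mice, and the deviations of same-numbered mice had correlations of -0.006, -0.11, 0.497 and 0.113, so not every mouse correlated best with its own number. With the replicate numbers as a block, 465 genes were called (206 up, 259 down), 956 in CR against control and 0 for the interaction, and 32 of the named calls were lost.

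At 21047242 to 24919377 counts per library, genes near 3 counts could not be compared, and DEGs made up 6.34% of the genes tested in the lowest quartile of mean level and 3.44% of those in the highest.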

Other observations

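Summed B cell and mesothelial markers separated freely fed from restricted mice among both sedentary and trained animals. The 10 B cell markers summed to 2.27 to 2.98 CPM in control, 0.189 to 0.330 in CR, 1.601 to 2.76 in EX and 0.124 to 0.532 CPM in CREX libraries. The 8 mesothelial markers in the table went the other way, at 2.31 to 3.70 CPM in control, 6.55 to 8.90 in CR, 3.61 to 5.996 in EX and 6.15 to 9.24 CPM in CREX libraries, although Upk3b, Upk1b and Wt1, the markers that define mesothelium, were at 0 in all 8 trained libraries. T and NK cell markers summed to 3.98 to 4.41 CPM in control, 1.89 to 3.08 in CR, 2.96 to 3.43 in EX and 1.597 to 3.22 CPM in CREX libraries, and there EX and CREX libraries overlapped. Few of these genes passed the filter, so most of these sums rest on low counts.

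Trf, the transferrin gene, stood at 57.1, 132, 78.4 and 76.6 CPM in EX and at 235, 135, 200.5 and 235 CPM in CREX mice (log2 fold change 1.22 ± 0.29 SE, adjusted p = 0.0485 by edgeR). In sedentary mice its log2 fold change was 0.13 (by edgeR, adjusted p = 0.566), and the interaction had an unadjusted p of 0.00967 and an edgeR adjusted p of 0.824. The call of Trf did not hold in 5 or more of the 8 edgeR fits that each left out 1 mouse (adjusted p up to 0.122).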
